A study of Homo sapiens with 8 samples.

Results

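The MCM family was followed by its 10 members, MCM2, MCM3, MCM4, MCM5, MCM6, MCM7, MCM8, MCM9, MCM10 and MCMBP, found by gene symbol. The rule uses no measured level, but the family was picked with earlier results of these data known. Each symbol matched 1 of the 78932 gene identifiers in the count tables, and all 10 were among the 12618 genes that passed the filter on low counts. The cells were HCT116, a human colorectal cancer line, labelled dTAG-NUDT21. This label denotes a degradation tag on NUDT21, the small subunit of cleavage factor Im, which binds nascent RNA near poly(A) sites. Every one of the 8 libraries is from cells that received JTE-607, an inhibitor of the nuclease that cuts pre-mRNA at poly(A) sites. DMSO, the solvent, was added in 4 of them and dTAGV1, which directs tagged proteins to degradation, in the other 4. The groups are termed DMSO and dTAGV1 here, and no library without JTE-607 enters the comparison. Doses, times and whether the line is 1 clone are not given in the sources used here.

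The products of MCM2 to MCM7 form the ring-shaped helicase that unwinds DNA in S phase. In G1 phase the origin recognition complex, CDC6 and CDT1 load the ring onto DNA in an inactive form, and kinases then let CDC45 and the GINS complex join and activate it. MCM10 helps the ring open DNA, MCM8 and MCM9 form a separate helicase that acts in recombination, and MCMBP is a chaperone of MCM proteins. Genes of the ring are classical targets of E2F transcription factors, and their mRNA is abundant in dividing cells.

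Promoter sequences are shown first, because E2F sites are a known feature of ring gene promoters. RefSeq windows (GRCh38.p14) of 250 bases before to 50 after a start were at hand for 8 members in 11 windows, and MCM4 and MCM5 had none. The E2F site was searched on both strands as TTTCCCGC, TTTCGCGC, TTTGCCGC or TTTGGCGC. It was found for 6 of the 8 members, MCM2, MCM3, MCM6, MCM7, MCM8 and MCMBP, in 6 of the 11 windows. Of all 35116 windows in the table, 3.31% hold it. The 9 stretches are shown because they carry every match, each 5′ to 3′ on the strand of the gene, with the matched letters in capitals.
MCM2, chr3:127598404-127598433, plus strand: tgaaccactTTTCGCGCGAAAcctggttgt
MCM3, chr6:52284898-52284927, minus strand: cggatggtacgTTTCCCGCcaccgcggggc
MCM3, chr6:52284728-52284757, minus strand: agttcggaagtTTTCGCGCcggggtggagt
MCM6, chr2:135876575-135876604, minus strand: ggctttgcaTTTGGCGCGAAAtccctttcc
MCM6, chr2:135876513-135876542, minus strand: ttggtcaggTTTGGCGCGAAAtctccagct
MCM7, chr7:100101566-100101595, minus strand: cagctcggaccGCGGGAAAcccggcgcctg
MCM7, chr7:100101388-100101417, minus strand: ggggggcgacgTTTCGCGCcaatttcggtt
MCM8, chr20:5950667-5950696, plus strand: ggatcactgaaGCGCCAAAaaagaatttag
MCMBP, chr10:119872834-119872863, minus strand: ggcggcggctaTTTCCCGCcattgtgcgaa

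In MCM2 and at both places in MCM6, matches on the 2 strands overlap into 1 run. The first matched base lay 2 bases after the RefSeq start in MCM2 and 26 after it in MCM8. It lay 174 and 4 bases before the start in MCM3, 152 and 90 before it in MCM6, 187 and 9 before it in MCM7, and 9 before it in MCMBP. MCM7 has 3 RefSeq starts and MCMBP has 2 in the table, and the matches belong to 1 of them in each gene. Windows follow the RefSeq starts, which can differ from the outermost GENCODE bounds given below. The RefSeq start nearest to that bound is 188 bases inside it in MCM2, 543 in MCM7 and 18975 in MCMBP. The shorter 7-base form (the same letters without the first T, contained in every longer match) was in 7 of the 11 member windows, against 13.0% of all windows. The CCAAT box was in 8 of the 11, against 34.6% of all windows. The CHR element TTTGAA was in 0 of the 11, against 15.2%. These matches describe letters in a window, and binding was not measured.

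MCM9 and MCM10 had no match to the E2F letters in their windows. Whether such matches go with the change in RNA of a gene was not tested. The upstream bases of MCM9 and MCM10 are shown beside those of MCM6, which has 4 matches counted over both strands. E2F letters and CCAAT boxes on either strand are in capitals. Each run ends just before the first annotated transcript base.
MCM6, chr2:135876444-135876693, minus strand: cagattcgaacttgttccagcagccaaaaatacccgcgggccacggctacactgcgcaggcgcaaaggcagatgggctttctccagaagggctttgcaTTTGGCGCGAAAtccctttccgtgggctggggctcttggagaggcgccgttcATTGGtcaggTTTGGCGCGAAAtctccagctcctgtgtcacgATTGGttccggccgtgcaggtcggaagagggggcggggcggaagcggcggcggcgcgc
MCM10, chr10:13161308-13161553, plus strand: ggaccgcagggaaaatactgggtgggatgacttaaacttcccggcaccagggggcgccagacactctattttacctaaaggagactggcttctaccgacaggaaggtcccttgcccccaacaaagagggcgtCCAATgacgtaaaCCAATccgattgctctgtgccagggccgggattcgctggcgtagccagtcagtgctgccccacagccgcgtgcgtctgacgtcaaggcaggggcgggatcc
MCM9, chr6:118935163-118935409, minus strand: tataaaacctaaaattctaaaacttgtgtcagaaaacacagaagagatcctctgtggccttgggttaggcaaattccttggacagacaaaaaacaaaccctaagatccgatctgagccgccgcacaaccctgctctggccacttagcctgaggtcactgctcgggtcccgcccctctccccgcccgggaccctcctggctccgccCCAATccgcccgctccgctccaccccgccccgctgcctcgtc

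Libraries held 3447842 to 4291256 reads counted to genes on the sense strand. Counts of NUDT21 were 104, 139, 131 and 129 for DMSO (replicates 1 to 4) against 34, 29, 15 and 43 for dTAGV1. Its RNA was thus lower with dTAGV1, for a reason that was not tested. The agent is directed at the tagged protein, which was not measured. Of 8 epithelial markers, 7 had at least 10 counts in every library (CLDN7 had 4 to 16), and their summed level was 1759 to 2062 per 1000000 counts with DMSO and 1484 to 1583 with dTAGV1. The 5 blood markers had at most 4 counts in a library and the 3 endothelial ones at most 10. Of 5 fibroblast markers COL3A1, DCN and LUM were at 0 throughout, COL1A2 had at most 1 count and COL1A1 had 37 to 73. Reads that fit no gene made up 30.1% to 33.7% of uniquely mapped reads with DMSO and 35.9% to 37.4% with dTAGV1, and mitochondrial genes took 7.98% to 8.56% and 9.22% to 10.4% of the counts. Their part in the results below was not tested.

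RNA of 9 of the 10 members was lower with dTAGV1, and that of MCM9 did not pass the test (quasi-likelihood test of edgeR with p-values adjusted after Benjamini and Hochberg over all tested genes, threshold 0.05). Among all 12618 tested genes 28.5% were called lower, 29.4% higher and 57.9% in either direction. In 9 of 10 members each dTAGV1 library lay below every DMSO library, which was the case for 25.1% of all tested genes, and 50.9% were without overlap in either direction. The median log2 fold change was -0.89 for the 10 members and -1.09 for MCM2 to MCM7, against 0.01 for all tested genes, whose 5th and 25th percentiles were -1.36 and -0.43. With dTAGV1 the members thus stood between 33.5% of the DMSO level for MCM10 and 109% for MCM9. In bulk RNA, fewer cells in the phase that uses a gene and less RNA in each cell cannot be told apart.

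**Figure D1:**
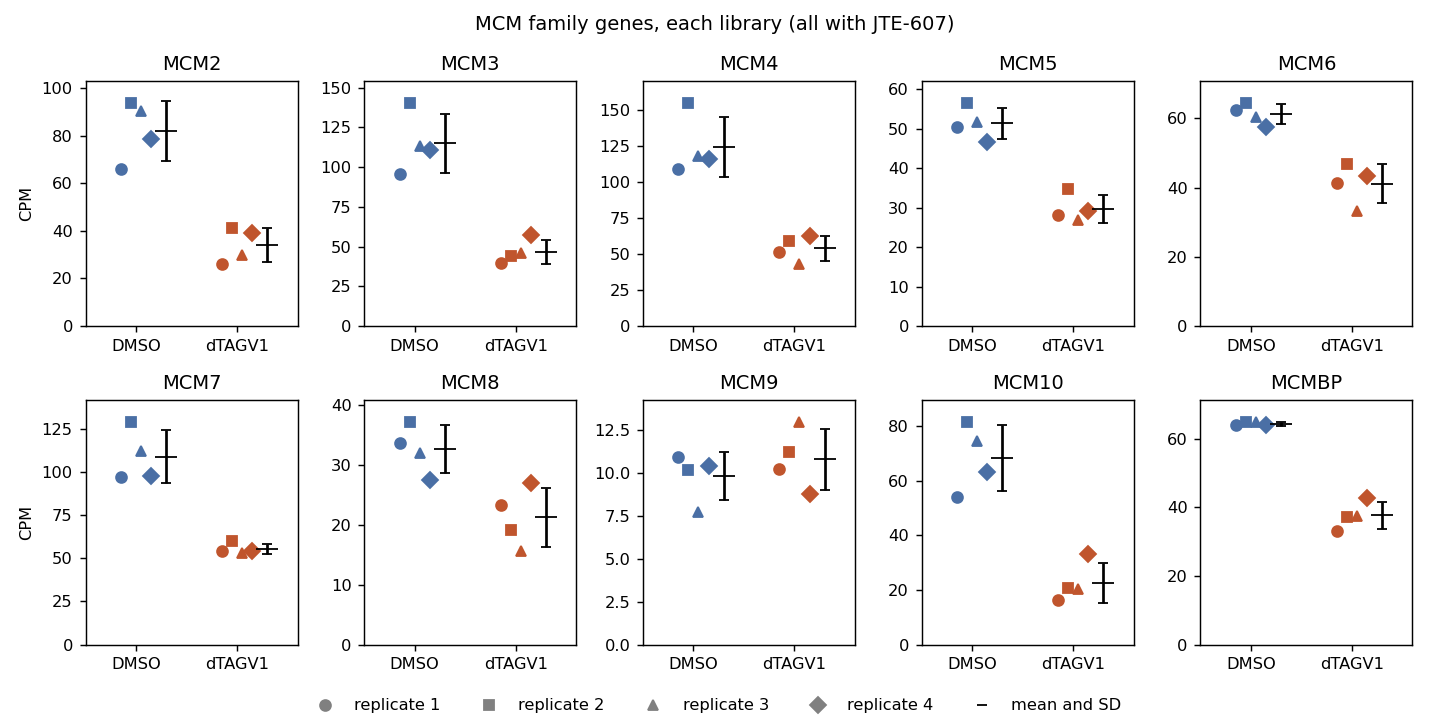
Levels of the 10 MCM family genes in CPM (vertical axes from 0) in each of 4 DMSO and 4 dTAGV1 libraries, with symbols for the replicate number and the mean and SD beside them. In every panel other than MCM9 all dTAGV1 libraries lie below all DMSO libraries.

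The ring genes are described first, in CPM (counts per 1000000, with library totals scaled by TMM). The protocol reads about 1 fragment from the 3′ end of each transcript, so CPM was not divided by transcript length. Use of poly(A) sites was not examined, and its part in these counts was not tested. MCM2 (ENSG00000073111; GRCh38 chromosome 3, 127598223 to 127622436, plus strand, protein-coding) encodes the subunit that also binds histones. Its level was 65.9, 93.6, 90.2 and 78.6 CPM with DMSO, in the order of replicates 1 to 4 used throughout, and 26.1, 41.1, 29.8 and 39.0 CPM with dTAGV1. The highest dTAGV1 library was well below the lowest DMSO library. The mean fell from 82.1 ± 12.6 to 34.0 ± 7.22 CPM (SD, n = 4 each, log2 fold change -1.27, SE 0.13, edgeR adjusted p = 7.1e-08).

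MCM3 (ENSG00000112118; chromosome 6, 52264009 to 52284881, minus strand, protein-coding) encodes the subunit that stands beside MCM5 in the ring. Levels were 95.4, 140, 113 and 111 CPM with DMSO, and 39.4, 43.8, 45.7 and 57.2 CPM with dTAGV1. It fell the most of the 6 ring genes, to 40.7% of the DMSO level (95% interval 34.2% to 48.4%, log2 fold change -1.30, SE 0.12, edgeR adjusted p = 7.87e-09). The intervals of MCM2 and MCM4 include that value. MCM5 (ENSG00000100297; chromosome 22, 35400063 to 35425430, plus strand, protein-coding) had 50.6, 56.4, 51.8 and 46.7 CPM with DMSO and 28.1, 34.7, 26.8 and 29.1 CPM with dTAGV1. It fell to 57.7% of the DMSO level (95% interval 49.1% to 67.8%, log2 fold change -0.79, SE 0.11, edgeR adjusted p = 1.7e-06). In both genes every dTAGV1 library was below every DMSO library.

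MCM4 (ENSG00000104738; chromosome 8, 47960185 to 47978160, plus strand, protein-coding), MCM6 (ENSG00000076003; chromosome 2, 135839626 to 135876426, minus strand, protein-coding) and MCM7 (ENSG00000166508; chromosome 7, 100092728 to 100101940, minus strand, protein-coding) make a subcomplex with helicase activity of its own. MCM4 was at 109, 155, 118 and 116 CPM with DMSO and at 51.3, 58.9, 43.3 and 62.7 CPM with dTAGV1. MCM6 was at 62.6, 64.4, 60.6 and 57.6 CPM with DMSO and at 41.4, 46.8, 33.3 and 43.3 CPM with dTAGV1. MCM7 was at 97.0, 129, 112 and 97.4 CPM with DMSO and at 54.1, 59.8, 53.0 and 54.4 CPM with dTAGV1. In none of the 3 did the groups overlap, but the gap was narrowest in MCM6, between 46.8 and 57.6 CPM. In that order the log2 fold changes were -1.20, -0.57 and -0.98 (SE 0.12, 0.11 and 0.10, edgeR adjusted p = 3.22e-08, 5.97e-05 and 6.86e-09). MCM6 had the smallest estimated fall of the ring genes, to 67.3% of the DMSO level (95% interval 57.8% to 78.4%).

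Summed over the 6 ring genes, the level was 480, 638, 546 and 507 CPM in the DMSO libraries and 240, 285, 232 and 286 CPM in the dTAGV1 libraries. The mean sum with dTAGV1 was 48.0% of that with DMSO. DMSO replicate 2 was the highest of its group in 9 of the 10 members, and it was also highest for the sum of the 16 G2 and mitosis genes, at 5313 CPM against 3009 to 4655 CPM in the other DMSO libraries. Without this library all 9 members were still called lower, and the median log2 fold change of MCM2 to MCM7 was -0.99. How far the share of dividing cells sets the spread between libraries was not tested.

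**Figure D2:**
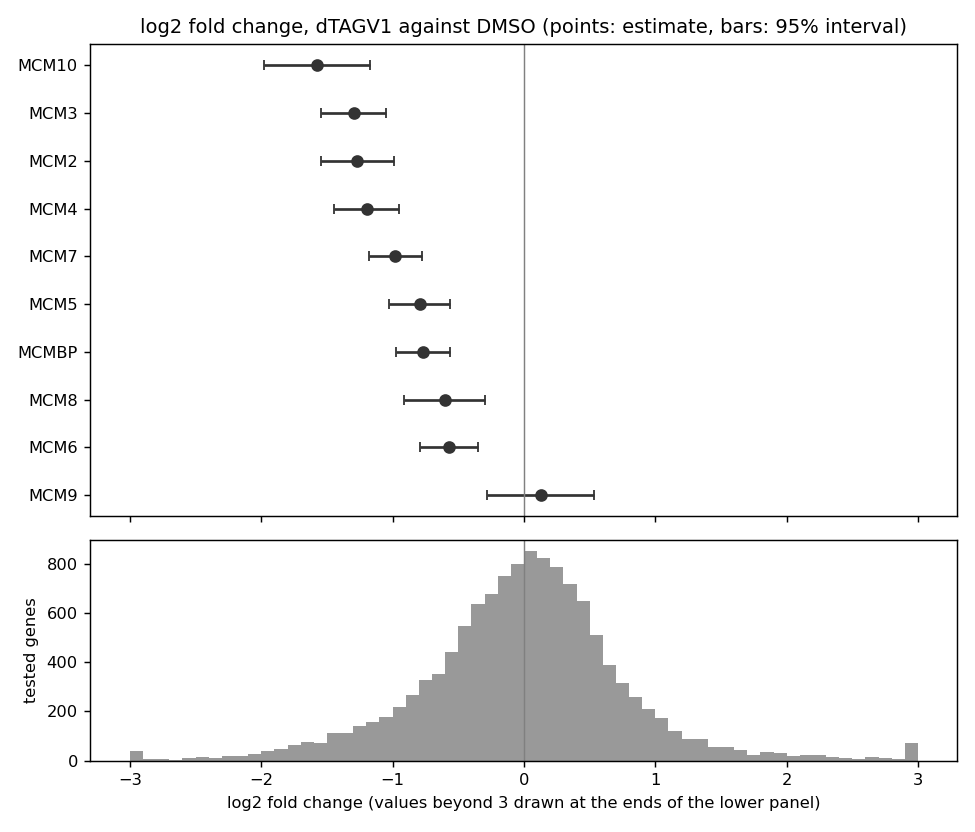
Upper panel: log2 fold change of each MCM gene, dTAGV1 against DMSO, with its 95% interval. Lower panel: the same quantity for all 12618 tested genes; intervals of 9 members lie below 0 and that of MCM9 spans it.

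MCM10 (ENSG00000065328; chromosome 10, 13161554 to 13211104, plus strand, protein-coding), which helps activate the loaded ring, had the largest estimated fall of the family. It was at 54.1, 81.5, 74.4 and 63.3 CPM with DMSO and at 16.2, 20.8, 20.3 and 33.1 CPM with dTAGV1. dTAGV1 replicate 4 lay above the other 3 of its group, and still below every DMSO library. The estimated log2 fold change was -1.58 (SE 0.19, edgeR adjusted p = 6.25e-06), and 3.29% of tested genes had a lower value. Without dTAGV1 replicate 4 it was -1.86. Relative to the sum of the ring genes in the same library, MCM10 differed by -0.56 on the log2 scale, and the groups overlapped (2-sided exact permutation test p = 0.0571, adjusted p = 0.0762 over 8 ratios chosen after values were seen).

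MCMBP (ENSG00000197771; chromosome 10, 119829404 to 119892556, minus strand, protein-coding), the chaperone, was nearly constant with DMSO at 63.9, 64.9, 64.8 and 63.8 CPM. With dTAGV1 it was at 33.2, 37.2, 37.4 and 42.8 CPM. It fell to 58.7% of the DMSO level (95% interval 50.8% to 67.8%, log2 fold change -0.77, SE 0.10, edgeR adjusted p = 4.91e-07). Its ratio to the summed ring genes differed by 0.28 on the log2 scale, with overlap of the groups, and did not pass the test (2-sided exact permutation test p = 0.0571, adjusted p = 0.0762 over the same 8 ratios).

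MCM8 and MCM9 encode partners of 1 complex. RNA of MCM8 fell and that of MCM9 did not pass the test, and the difference between them did not pass either. MCM8 (ENSG00000125885; chromosome 20, 5950652 to 5998977, plus strand, protein-coding) was at 33.6, 37.1, 32.0 and 27.4 CPM with DMSO and at 23.2, 19.0, 15.6 and 27.0 CPM with dTAGV1. The groups nearly met, at replicate 4 of each. Its estimated log2 fold change was -0.60 (SE 0.15, edgeR adjusted p = 0.00133). MCM9 (ENSG00000111877; chromosome 6, 118813442 to 118935162, minus strand, protein-coding) had the lowest level of the family, with 29 to 42 counts per DMSO library and 36 to 44 per dTAGV1 library. It was at 10.9, 10.1, 7.74 and 10.4 CPM with DMSO and at 10.2, 11.2, 13.0 and 8.75 CPM with dTAGV1, and the groups overlapped. Its estimated log2 fold change was 0.13 (SE 0.20, edgeR adjusted p = 0.602). As a percentage of DMSO, the 95% intervals were 53.0% to 81.6% for MCM8 and 82.4% to 145% for MCM9. The ratio of MCM8 to MCM9 within a library differed by -0.77 on the log2 scale, but its groups overlapped and the difference did not pass the test (2-sided exact permutation test p = 0.0857, adjusted p = 0.098 over the same 8 ratios).

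Mean levels were ordered as follows within the ring. With DMSO the means ran from MCM4 (124 CPM), MCM3 (115 CPM) and MCM7 (109 CPM) over MCM2 (82.1 CPM) to MCM6 (61.3 CPM) and MCM5 (51.4 CPM). The first 3 overlap within their SDs of 20.6, 18.6 and 15.1 CPM. With dTAGV1 the order was MCM7 (55.3 CPM), MCM4 (54.0 CPM), MCM3 (46.5 CPM), MCM6 (41.2 CPM), MCM2 (34.0 CPM) and MCM5 (29.7 CPM). MCM6 then stood above MCM2, although their SDs of 5.73 and 7.22 CPM with dTAGV1 overlap. Outside the ring the DMSO means were 68.3 CPM for MCM10, 64.4 for MCMBP, 32.6 for MCM8 and 9.80 for MCM9, and the dTAGV1 means 22.6, 37.6, 21.2 and 10.8 CPM. How well priming worked can differ between genes, so levels of different genes are less certain than changes of 1 gene.

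Shares of each subunit in the summed counts of the 6 genes need no scaling between libraries. MCM6 made up 13.0%, 10.1%, 11.1% and 11.4% with DMSO and 17.2%, 16.4%, 14.4% and 15.1% with dTAGV1, and it was the 1 subunit whose groups did not overlap. Its share was 4.39 percentage points higher (2-sided exact permutation test p = 0.0286, the smallest that 4 against 4 allow; adjusted p = 0.0686 over 6 subunits). Differences were 1.88 points for MCM5 and 1.31 for MCM7, and -2.17, -3.23 and -2.18 points for MCM2, MCM3 and MCM4, with exact permutation adjusted p-values of 0.0686 to 0.229. Leaving out 1 library moved the MCM7 difference to 0.80 points (without dTAGV1 replicate 3) and to 2.08 points (without dTAGV1 replicate 4). After adjustment 0 of the 6 shares passed the test, and any could pass only if most of them reached the smallest p.

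**Figure D3:**
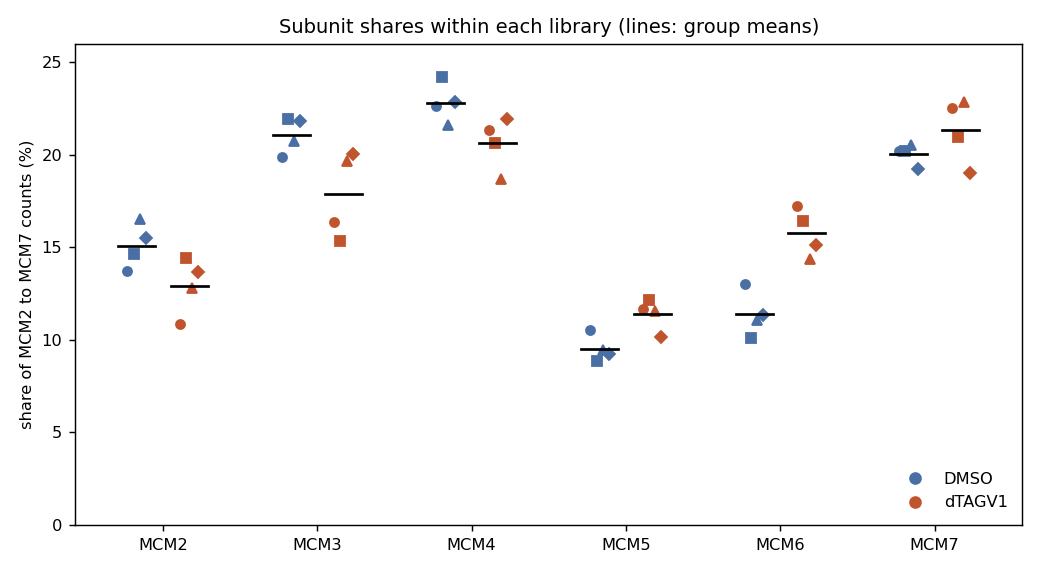
Share of each subunit in the summed MCM2 to MCM7 counts, in percent (axis from 0), in each library, with lines for group means. MCM6 is the subunit whose 4 dTAGV1 libraries (14.4% to 17.2%) all lie above its DMSO libraries (10.1% to 13.0%).

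The same question was asked pair by pair, as the log2 ratio of 2 subunits within a library. Of 15 pairs, 4 had groups without overlap and an unadjusted p of 0.0286, and 0 passed after adjustment over the 15 (2-sided exact permutation test, adjusted p = 0.107 to 0.971). All 4 of these pairs held MCM6, set against MCM2, MCM3, MCM4 and MCM5. The ratio of MCM3 to MCM6 was 0.61, 1.12, 0.90 and 0.94 on the log2 scale with DMSO and -0.07, -0.10, 0.45 and 0.40 with dTAGV1, a difference of -0.72. By contrast the ratio of MCM2 to MCM3 differed by 0.02, within the spread between libraries (SD 0.11 and 0.25 on the log2 scale). Over 15 pairs, any could pass only if most of them reached the smallest p that 4 against 4 allow, 0.0286. A p above the threshold does not show that the subunits changed alike.

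Genes that start near an MCM gene on the other strand did not all follow it. Distances here are between the outermost GENCODE bounds, not the RefSeq starts of the windows shown. TPRA1, a membrane protein gene whose start lies 44 bases from that of MCM2, was at 21.3, 30.1, 33.1 and 30.7 CPM with DMSO and at 44.2, 42.3, 43.9 and 34.3 CPM with dTAGV1. All dTAGV1 libraries were above all DMSO libraries, the reverse of MCM2. It rose by 0.51 on the log2 scale (SE 0.13, edgeR adjusted p = 0.002). PRKDC, the gene of a DNA repair kinase that starts 2 bases from MCM4, was at 407, 440, 446 and 452 CPM with DMSO and at 341, 348, 301 and 305 CPM with dTAGV1, without overlap. It fell by 0.43 on the log2 scale (edgeR adjusted p = 1.19e-05). AP4M1, an adaptor complex gene beside MCM7, fell by 0.59 on the log2 scale (edgeR adjusted p = 0.019). Both neighbours had values on the same side of 0 as their MCM gene. TRMT6, a tRNA methyltransferase gene beside MCM8, had a value of 0.10 and did not pass the test (edgeR adjusted p = 0.425). SEC23IP, a gene of the secretory pathway, starts 155 bases from the outermost bound of MCMBP, but both RefSeq starts of MCMBP, 1 of them with the E2F match, lie at least 18975 bases inside that bound. It fell by 0.33 on the log2 scale (edgeR adjusted p = 0.000462).

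Within libraries, the ratio of the MCM gene to the neighbour was lower with dTAGV1 in all 5 pairs on average. It differed by -1.80 on the log2 scale for MCM2 and TPRA1, by -0.77 for MCM4 and PRKDC, by -0.73 for MCM8 and TRMT6 and by -0.44 for MCMBP and SEC23IP, each without overlap of the groups (2-sided exact permutation test p = 0.0286, adjusted p = 0.0571 over the 8 ratios). For MCM7 and AP4M1 it differed by -0.39 with overlap (2-sided exact permutation test p = 0.143, adjusted p = 0.143). None of the 8 ratios passed after adjustment, and 4 had an unadjusted p under 0.05. These 4 were at the smallest p that 4 against 4 allow. Over 8 ratios, any could pass only if more than 4 reached it. The 8 ratios were chosen after values were seen. A lower ratio in the 5 pairs was likely in advance, since these MCM genes had been called lower. Of tested genes, 5.75% had a lower log2 fold change than MCM2, 6.63% than MCM4, 9.53% than MCM7, 18.4% than MCM8 and 13.9% than MCMBP. Most other genes would thus also give a lower ratio, and nothing about nearby starts is read from it.

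**Figure D4:**
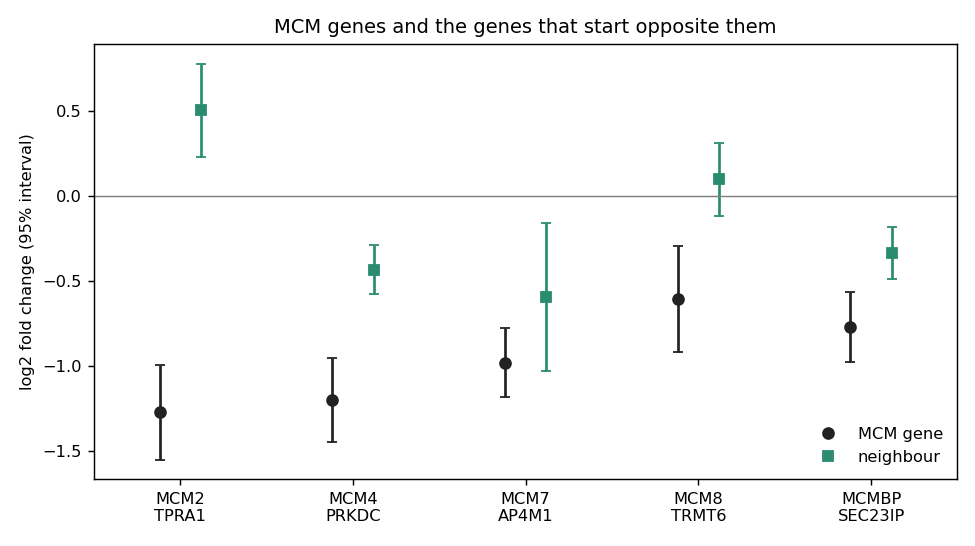
Log2 fold changes with 95% intervals for 5 MCM genes (circles) and the genes that start within 1000 bases of their outermost GENCODE bound on the other strand (squares), which for MCMBP is far from its RefSeq starts. The square lies above the circle in all 5 pairs, and TPRA1 is the neighbour whose interval lies above 0.

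Overlapping genes bear on how some members are counted. An antisense gene, AC023593.1, overlaps 2331 bases of MCM2, and MCM2 had 1779 counts over the 8 libraries on its own strand but 3 when strand was ignored. Counting of this kind gives a read that falls on 2 genes to neither. The fall of MCM2 rests on the stranded counts alone. MCM9 overlaps ASF1A, a histone chaperone gene on the other strand, over 14948 bases. ASF1A rose from 26.8 ± 4.63 to 39.4 ± 2.65 CPM (SD, n = 4 each; log2 fold change 0.55, edgeR adjusted p = 0.000625). MCM7 holds MIR25, MIR93 and MIR106B in introns, and these had 1, 1 and 3 counts in all libraries together, so the poly(A) libraries say nothing of their level.

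Genes that act with the MCM proteins were read from 7 lists, against 28.5% called lower and 29.4% called higher over all tested genes. Of the 9 licensing genes, which load the ring or control its loading, 5 were lower and 1 higher, with a median log2 fold change of -0.93. ORC6, a subunit of the origin recognition complex, had the lowest value, -1.42, and CDC6, CDT1 and GMNN (the inhibitor of CDT1) were at -1.29, -1.32 and -1.07. ORC1, another subunit of that complex, was also called lower, at -0.93, while ORC2 rose by 0.39. ORC3, ORC4 and ORC5 did not pass the test, at 0.27, 0.16 and 0.09. Of 25 genes that activate the ring or travel with it at the fork, 22 were lower and 0 higher, with a median of -1.07. GINS4 had the lowest value, -1.74, and CLSPN, a fork checkpoint mediator, followed at -1.68, falling from 161 ± 20.8 to 49.9 ± 11.7 CPM (SD, n = 4 each). TOPBP1, which helps CDC45 join, was at 0.02 and POLE4, a small subunit of a replicative polymerase, at -0.13, and neither passed the test.

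Among 12 tested chaperone, histone and unloading partners, 5 were lower and 3 higher, with a median of -0.12. The share called, 8 of 12, is near the 57.9% of all tested genes. TRAIP, a ubiquitin ligase that unloads stalled rings, had the lowest value, -2.05, at 8.87 ± 2.07 CPM with DMSO and 2.06 ± 1.34 CPM with dTAGV1 (SD, n = 4 each). NASP, a histone chaperone, was at -1.14, while ASF1A and UBXN7, a cofactor of the unloading machinery, rose by 0.55 and 0.52. MCM3AP, named for its binding to MCM3, was at -0.09 and did not pass the test. Of 7 recombination and repair genes grouped with MCM8 and MCM9, 3 were lower and 2 higher, with a median of -0.49, where 28.5% of all tested genes were called lower and 29.4% higher. With so few genes nothing is read from that count. HROB, which recruits the MCM8 and MCM9 helicase, fell by 2.01 on the log2 scale, from 7.09 ± 1.12 to 1.74 ± 0.271 CPM (SD, n = 4 each), and NBN, a subunit of a double-strand break complex, rose by 0.70.

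Of 17 tested E2F, RB and DREAM genes, a list of transcription regulators of the cell cycle, 11 were lower and 3 higher, with a median of -0.54. E2F1, an activator, was at -1.98, falling from 14.5 ± 2.03 to 3.63 ± 0.674 CPM (SD, n = 4 each), and MYBL2 was at -2.05. E2F5 and LIN54, a DNA-binding subunit of DREAM, rose by 0.57 and 0.84. Among 20 other S-phase genes 18 were lower and 1 higher, with a median of -1.28. CCNE1, the cyclin of S-phase entry, and UHRF1 had the lowest values, -2.0 and -1.63. PCNA, the sliding clamp, was at 0.05 and did not pass the test, and CHAF1B rose by 1.75, from 18.6 ± 0.972 to 62.6 ± 7.42 CPM (SD, n = 4 each). All 16 G2 and mitosis genes were lower, with a median of -1.28 and values from -2.01 for CDC20 and -1.86 for AURKB to -1.10 for TOP2A and -0.72 for CCNB2. The lists were written by hand with earlier results of these data known, so their counts are a description.

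**Figure D5:**
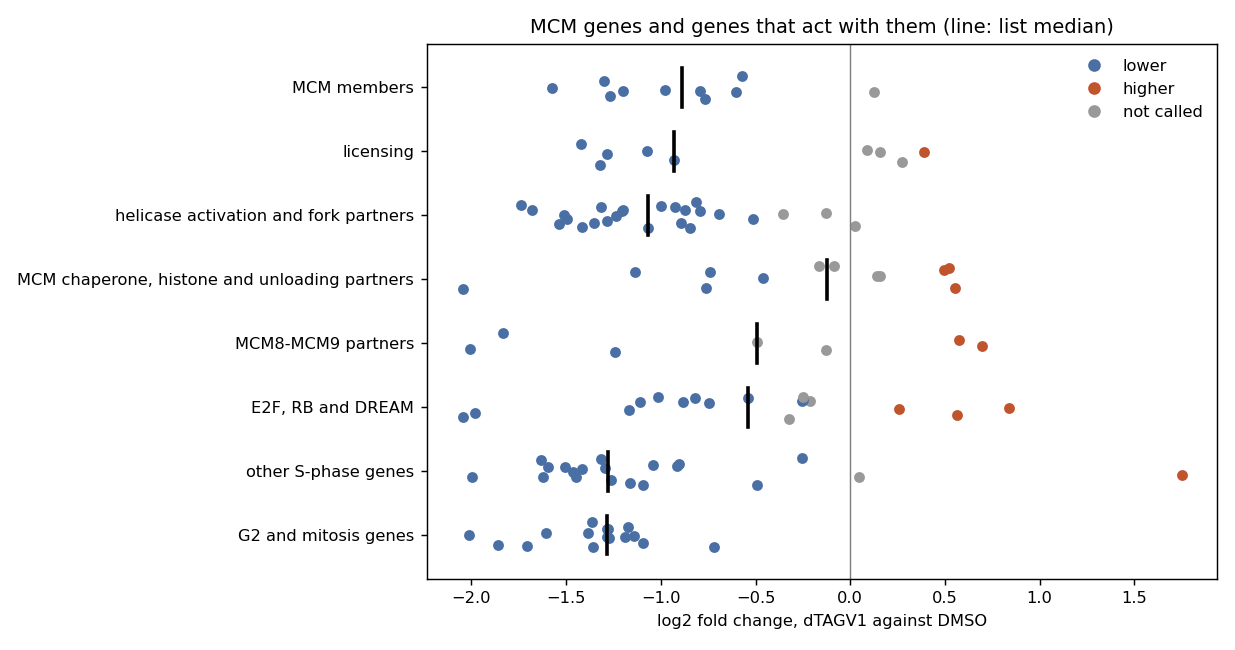
Log2 fold changes of the MCM genes and of the tested genes of 7 lists, with each gene as a point coloured by its call and a line at the list median. Medians run from -1.28 to -0.12, and CHAF1B stands apart at 1.75.

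Of 9238 other genes with a symbol and a mean of at least 10 CPM, those nearest to the mean profile of MCM2 to MCM7 over the 8 libraries were CHAF1A, CHRAC1, OAT, CKB and THOP1. Likeness was the Euclidean distance between log2 CPM values centred on each gene's mean, and it was 0.18, 0.18, 0.24, 0.25 and 0.26. Their log2 fold changes were -1.04, -1.02, -1.03, -1.13 and -1.02. The ring genes themselves lay 0.24 (MCM7) to 0.69 (MCM6) from that profile, and MCM9 lay 1.80 from it. The measure is a description, since the difference between the groups is part of the profile.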

How the data were processed

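Poly(A) RNA of 8 libraries was sequenced with the Lexogen QuantSeq forward kit after Trizol extraction, per the labels' protocols. The deposited values are raw counts of reads per gene. The submitters' processing notes name fastp, FastQC, STAR, HTSeq, DESeq2 and GRCh38, without versions or roles, and the tables have the layout of STAR's per-gene output. The annotation is not given in the sources used here. Counts on the strand of the gene were used, and 4 totals of reads given to no gene were left out. Libraries held 3447842 to 4291256 such counts.

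Gene symbols were looked up by identifier, and coordinates taken from GENCODE 29 on GRCh38. Genes were filtered with filterByExpr, scaled with TMM and compared with the quasi-likelihood test in robust mode in edgeR 4.0.16 (R 4.3.3). Benjamini-Hochberg adjustment ran over the 12618 tested genes, at a threshold of 0.05. The standard error is the absolute log2 fold change divided by the square root of F. Ratios and shares within libraries used exact permutation tests in SciPy 1.17.1, with a pseudocount of 1 in ratios. The replicates are numbered in the labels, which do not say that they are separate cultures, so p-values measure the spread between these libraries. Libraries of 1 group differed by more than sampling noise (chi-square per degree of freedom 1.89 to 5.65), so none was merged. The scripts for the gene-wise fit were checked on simulated data.

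The members and lists were chosen with earlier results of these data known. Named genes are all members, NUDT21, the tested neighbours with a start within 1000 bases on the other strand, the 2 lowest and 2 highest of each list (1 each in lists under 10), and the 5 nearest profiles. CDC6, CDT1, GMNN, ORC1, ORC3, ORC4, ORC5, MCM3AP, the overlapping genes and the markers were added after their values were seen. Alternatives were DESeq2 1.42.0, limma-voom (limma 3.58.1), other scalings, filters and dispersions, counts irrespective of strand, a replicate term, a fold threshold of 1.2 and leaving out each library.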

Additional observations from a re-analysis of the deposited data

How the results depend on the processing

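All 178 alternative log2 fold changes of the 10 members kept their direction and their side of the threshold. MCM2 ran from -1.38 to -1.17, MCM10 from -1.86 to -1.45, MCM6 from -0.65 to -0.50, MCM8 from -0.77 to -0.50 and MCM9 from 0.01 to 0.21, and MCM9 had adjusted p-values of 0.422 to 0.962 over its alternatives. Counts irrespective of strand left MCM2 untested, and its subunit shares were then not run; a mean of at least 100 counts left out MCM9. That filter also lowered the counts of calls, since fewer genes were tested: 4120 genes were called, 2131 higher and 1989 lower, against 7302, 3710 and 3592. Lower calls fell to 10 of the helicase activation and fork partners, 1 of the MCM8 and MCM9 partners and 6 of the E2F, RB and DREAM genes. The filter removed genes from these lists too, so these counts are not shares of the full lists. Leaving out each library gave 9 lower members in all 8 fits. Over all genes these fits called 3396 to 3683 lower and 6861 to 7232 in either direction, of 12839 to 12933 tested. DESeq2 called 6738 genes and library-size scaling 7275, the latter with a median shift of -0.07. Library-size scaling called 4089 genes lower and 3186 higher, so the shares of all tested genes called in each direction depend on the scaling. The replicate block called 7434 genes, 7258 of them shared, and changed no call of a member. Deviations of same-numbered libraries correlated at 0.131, -0.0176, 0.0232 and 0.0340, so the numbers were not taken to pair them. With the sign-flip test over same-numbered libraries, 0 of 15 subunit pairs passed, where 4 pairs cannot give a p below 0.125, and 3 libraries against 4 cannot go below 0.0571.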

Other observations

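On the strand opposite to MCM9, reads over its exons numbered 59, 67, 43 and 39 for DMSO (replicates 1 to 4) against 81, 71, 66 and 52 for dTAGV1, more than on its own strand in all but DMSO replicate 4. For each 1000000 sense counts the DMSO mean was 13.6 ± 3.46 and the dTAGV1 mean 18.4 ± 4.43 (SD over 4 libraries), and the groups overlapped (2-sided exact permutation test p = 0.143). Over the 8 libraries MCM9 had 307 counts on its own strand, 478 on the opposite strand and 316 when strand was ignored. Counting without strand drops reads shared with another gene, so most of the opposite reads also fell on another annotated gene. ASF1A lies on that strand and overlaps MCM9, so these may be reads already counted for ASF1A, which was not tested.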
